A study of Mus musculus with 6 samples.

Results

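Rian, Zrsr1 and Nespas are imprinted genes, each transcribed mainly from the chromosome inherited from 1 parent, and each held 1 transcript among the 3093 long non-coding RNA transcripts profiled in mouse pancreatic islets. The members were the transcripts whose deposited interval overlapped the GENCODE M21 gene body of Rian, Zrsr1 or Nespas more than any other gene. The rule used position alone and no measured value. The Rian interval had a single best gene. The Zrsr1 interval lay equally inside Commd1 and the gene model Gm28048, and the Nespas interval lay equally inside Gnas. These ties were given to the smallest gene.

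Islets are the clusters of endocrine cells that hold the insulin-secreting beta cells. Total RNA came from islets of C57BL/6 mice that had been kept for 8 weeks on normal chow (NCD, 3 libraries) or on a high-fat diet, written as high-fed in the labels (HFD, 3 libraries). The labels give no age, sex or genotype beyond the strain, and do not say whether a library pools animals. The db/db mice of the series title were not analysed here. The deposited table gave 1 value per diet group in FPKM, fragment counts scaled by transcript length and by the mapped total. No value per library was used, so no difference below has a replicate check, an SD or a p-value. In bulk islets, fewer cells of a type and less RNA per cell cannot be told apart. Of 24 marker genes of islet, duct, acinar, endothelial, immune and stromal cells, only the duct gene Epcam held a transcript of this table, so the tissue label could not be checked against its markers.

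Imprinted genes lie in clusters that a differentially methylated control region switches according to parental origin, and long non-coding RNAs are common in such clusters. Rian, also called Meg8, belongs to the Dlk1-Dio3 cluster, where the maternal chromosome makes the non-coding RNAs Meg3, Rian and Mirg and the paternal one makes the messenger RNAs of Dlk1, Rtl1 and Dio3. The maternal RNAs are hosts of many microRNAs and C/D box small nucleolar RNAs (snoRNAs), and the cluster has been studied in beta cells. Zrsr1 is a paternally expressed retrogene inside an intron of Commd1, on the opposite strand, and encodes a splicing factor of the family that recognises the acceptor end of introns. Nespas, named Gnasas1 in RefSeq, is a paternally expressed antisense RNA of the Gnas cluster. Gnas encodes the stimulatory G protein subunit that links glucagon and incretin receptors to cAMP.

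The Rian transcript spanned chr12:109620327-109661716 (GRCm38, 41390 bases) and covered 71.6% of the gene, which lies on the plus strand. It began 16387 bases after the annotated start of the gene and ended on its last base. Of the 20 annotated Rian transcripts, 2 began on the first base of the interval, 1 ended on its last base and 17 lay wholly inside it. Exons of Rian filled 17741 of its bases (42.9%). The exon of another non-coding gene on the plus strand, Gm26945, filled 2011 bases of the interval. All 13 snoRNA genes annotated inside Rian lay within the interval, and none of the 3 microRNA hairpins that RefSeq places in the gene did. The hairpin nearest to the interval, Mir370, ended 1991 bases before it.

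The mature microRNAs upstream of the interval are printed because they mark the part of the Rian gene that the measured transcript left out. They are taken from RefSeq (GRCm38.p6), 5′ to 3′, with the seed (bases 2 to 8) in capitals.
mmu-miR-341-5p: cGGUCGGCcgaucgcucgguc
mmu-miR-341-3p: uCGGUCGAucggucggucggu
mmu-miR-1188-5p: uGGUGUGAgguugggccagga
mmu-miR-1188-3p: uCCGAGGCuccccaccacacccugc
mmu-miR-370-5p: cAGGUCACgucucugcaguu
mmu-miR-370-3p: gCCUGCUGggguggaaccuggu
The 6 mature sequences had 6 different seeds, so no pair could be grouped by seed. Their own levels were not measured by this table.

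The snoRNAs inside the interval are the small RNAs whose genes lie within the span of the measured transcript. Its exons are not given, so whether it contains these snoRNAs is not known. C/D box snoRNAs guide methylation of other RNAs and are known by a C box near the 5′ end and a D box near the 3′ end. Their sequences were read from the GENCODE M21 transcripts, and TGATGA was searched in the first 20 bases and CTGA in the last 20, on the snoRNA strand only. The 4 with names other than numbered gene models are printed, with both boxes in capitals.
AF357425: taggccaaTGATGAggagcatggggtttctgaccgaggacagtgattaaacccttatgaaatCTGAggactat
DQ267100: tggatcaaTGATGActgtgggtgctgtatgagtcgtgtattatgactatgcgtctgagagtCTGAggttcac
DQ267101: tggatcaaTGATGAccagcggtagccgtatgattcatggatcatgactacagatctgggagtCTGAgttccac
DQ267102: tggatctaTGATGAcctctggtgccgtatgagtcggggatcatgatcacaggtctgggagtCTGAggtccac
Both boxes were found in 7 of the 13 (53.8%), against 309 of the 1507 snoRNA transcripts of the whole annotation (20.5%), which also holds snoRNAs of other types. The 13 were 71 to 75 bases long. Over their 78 pairs, global alignment gave identities from 47.4% to 83.6% with a median of 62.8%, and DQ267101 and DQ267102 were the most alike.

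The Zrsr1 transcript spanned chr11:22972006-22973188 (1183 bases), beginning 1 base after the annotated start of the gene, and covered 26.3% of its single 4492-base exon. It lay wholly in the 5′ untranslated region and ended 40 bases before the first coding base, so it held 0 bases of the coding sequence. It touched the longest of the 3 annotated Zrsr1 transcripts and neither of the other two. An exon of a non-coding Commd1 transcript, 209 bases long, also lay inside it on the minus strand. Since the file gives no strand, RNA of Zrsr1 and of Commd1 cannot be told apart here.

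The Nespas transcript spanned chr2:174290181-174293112 (2932 bases) and touched no annotated exon. With the first exon 1957 bases away, it lay in the first intron of Nespas. Of the 3 annotated Nespas transcripts, 2 spanned the interval. It lay as fully in an intron of Gnas, on the other strand, with the nearest Gnas exons 1594 and 2883 bases away. The label Nespas therefore rests on position, and unspliced RNA of Nespas and of Gnas cannot be told apart without strand.

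**Figure D1:**
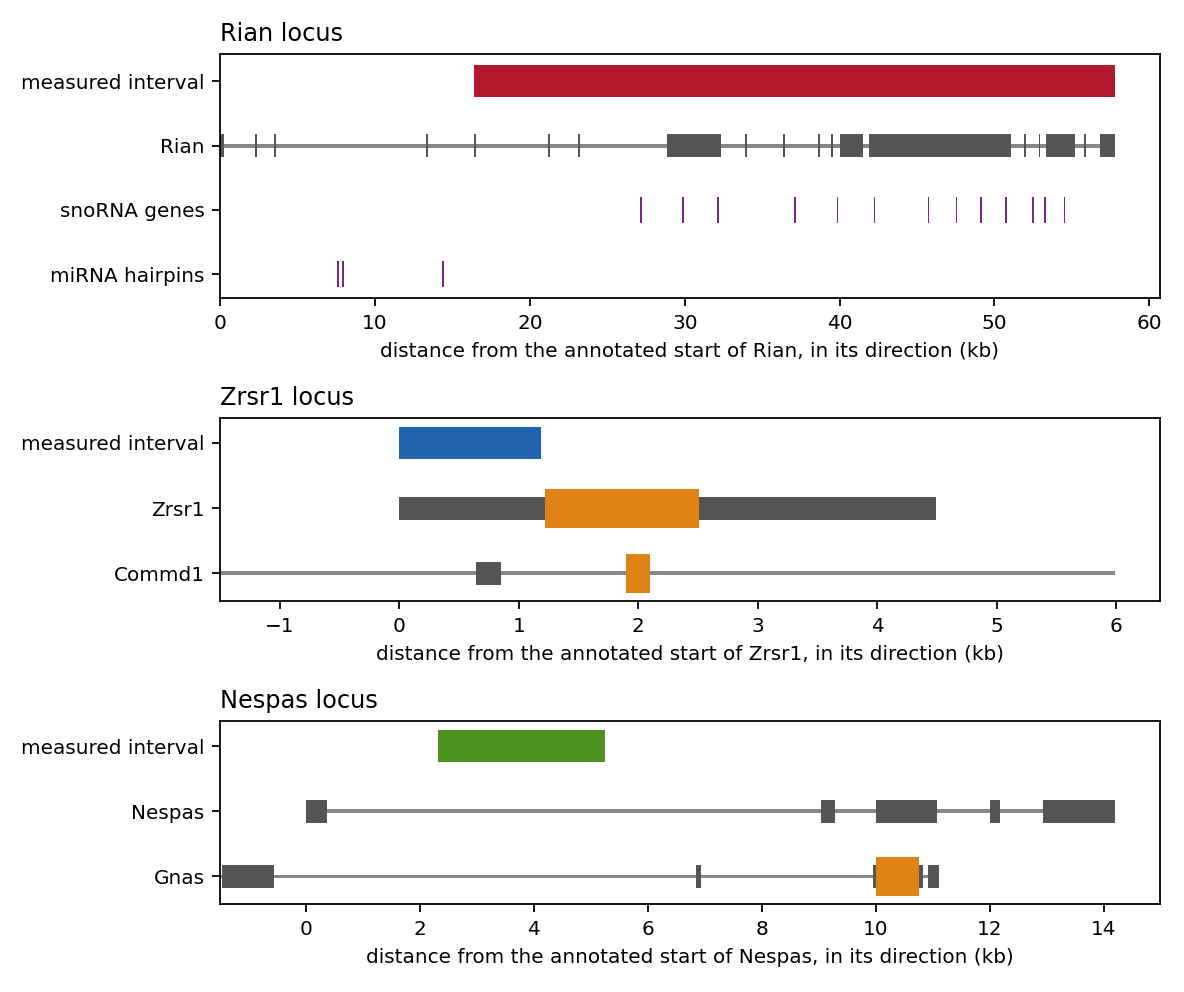
Maps of the 3 loci, drawn in the direction of each member gene with distance from its annotated start in kb; coloured bars are the measured intervals, grey boxes are exons, orange boxes are coding sequence, thin lines are gene bodies and purple marks are small RNA genes. The Rian interval holds all 13 snoRNA genes and none of the 3 microRNA hairpins, the Zrsr1 interval stops before the coding sequence, and the Nespas interval touches no exon.

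The Dlk1-Dio3 cluster was represented by Rian alone. From the start of Dlk1 to the end of Dio3, 828.3 kb, the table held 1 transcript, and no transcript touched Meg3 or Mirg. Likewise 1 transcript lay in Commd1 and 1 within 100 kb of Gnas, which were the Zrsr1 and Nespas transcripts themselves.

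Rian was at 47.1 FPKM in NCD and 51.9 FPKM in HFD. That placed it 25th of 3093 transcripts in NCD and 13th in HFD. Of the 193 transcripts that touched exons of non-coding genes only, it had the highest FPKM in both groups. The HFD value was 1.10 times the NCD value.

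Zrsr1 was at 12.6 FPKM in NCD and 11.4 FPKM in HFD, 136th and 60th in the table. Of the 353 transcripts touching an exon of a protein-coding gene, it ranked 8th in NCD and 4th in HFD. The HFD value was 0.909 times the NCD value.

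Nespas was at 3.00 FPKM in NCD and 1.61 FPKM in HFD, ranks 1224 and 1323. Of the 2054 transcripts within introns it ranked 939 in NCD and 873 in HFD, near the middle of its class in both. The HFD value was 0.536 times the NCD value.

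The order of the levels, Rian over Zrsr1 over Nespas, was the same in both columns. With 1 value per group it has no spread between libraries to be set against. Medians of the whole table were 2.53 FPKM in NCD and 1.42 FPKM in HFD. Rian and Zrsr1 thus lay far above the typical transcript, and Nespas close to it.

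**Figure D2:**
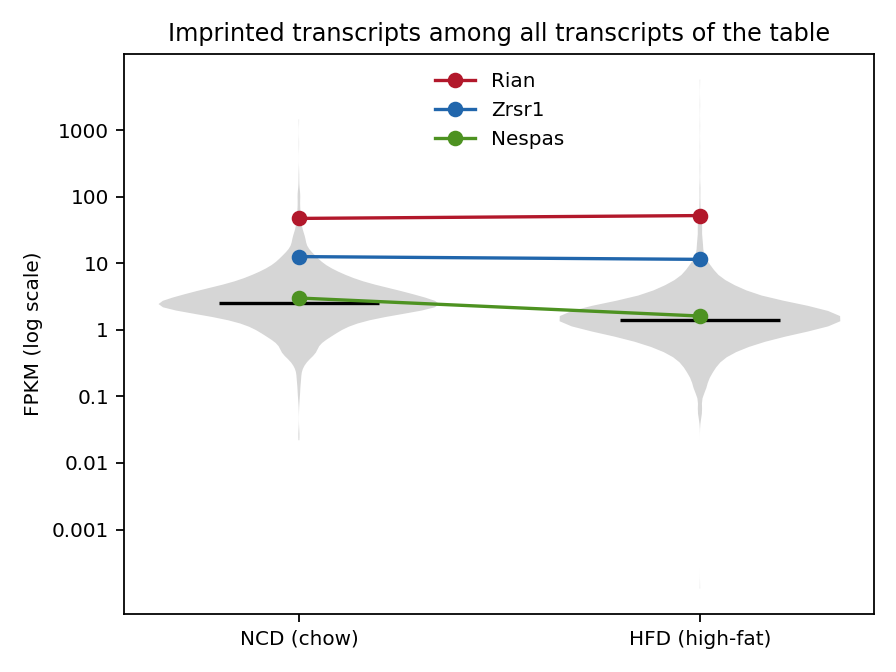
FPKM on a log scale of Rian, Zrsr1 and Nespas in the NCD and HFD columns (points, 1 deposited value per group), over grey shapes for the spread of all transcripts above 0 and black bars for the medians of 2.53 and 1.42 FPKM. Rian (47.1 and 51.9) and Zrsr1 (12.6 and 11.4) are nearly level while the body of the table is lower in HFD, and Nespas (3.00 and 1.61) moves with the median.

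The diets were compared on the log2 scale, as HFD over NCD with 0.1 FPKM added to each, so that ratios of low transcripts are understated. A difference by size was one of at least 2-fold. This rule took in 41.9% of the table as lower in HFD and 6.27% as higher. The split is nearly even after rescaling, at 15.0% lower and 15.9% higher with median centring and 14.9% and 16.2% with quantile normalization. Both rescalings align the columns by construction, so a near-even split follows largely from the rescaling and is no finding on the diets. Of the 3 members, 0 were past 2-fold in either direction. Over the whole table the log2 ratio had a median of -0.82, and each member is therefore also given relative to that median.

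For Rian the log2 ratio was 0.14, which lies 0.96 above the table's median and turns to -0.05 when both columns are scaled to the same sum. The value was the 522nd highest of 3093 (83.2th percentile). Among transcripts over non-coding exons only, whose median was -0.44, it ranked 52nd of 193 (73.4th percentile).

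For Zrsr1 the log2 ratio was -0.14, a value that turns positive, to 0.68, relative to the table's median. It stood at the 76.9th percentile of the table. Among transcripts over coding exons, with a median of -0.41, it was at the 63.6th percentile, rank 129 of 353.

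For Nespas the log2 ratio was -0.86, and relative to the table's median it was -0.04. Scaling both columns to the same sum brings it to -1.05, past 2-fold. It stood at the 48.5th percentile of the table and, among transcripts within introns, whose median was -0.98, at the 56.6th. The lower HFD value of Nespas was thus of the size seen for the middle of the table.

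Rian and Zrsr1 each lay higher in the whole table than in their own position class. Of the 133 transcripts with a mean of at least 10 FPKM over both columns, which include Rian and Zrsr1, 38 were higher in HFD and 95 lower, with a median of -0.97. Among these 133 abundant transcripts 64 were at least 2-fold lower and 24 at least 2-fold higher. Of all 3093 transcripts, 1297 (41.9%) were at least 2-fold lower and 194 (6.27%) at least 2-fold higher. The limit of 10 FPKM used the same 2 columns as the ratio. A transcript high in 1 diet alone could enter through that diet. The counts and the median are therefore no neutral background for Rian and Zrsr1.

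**Figure D3:**
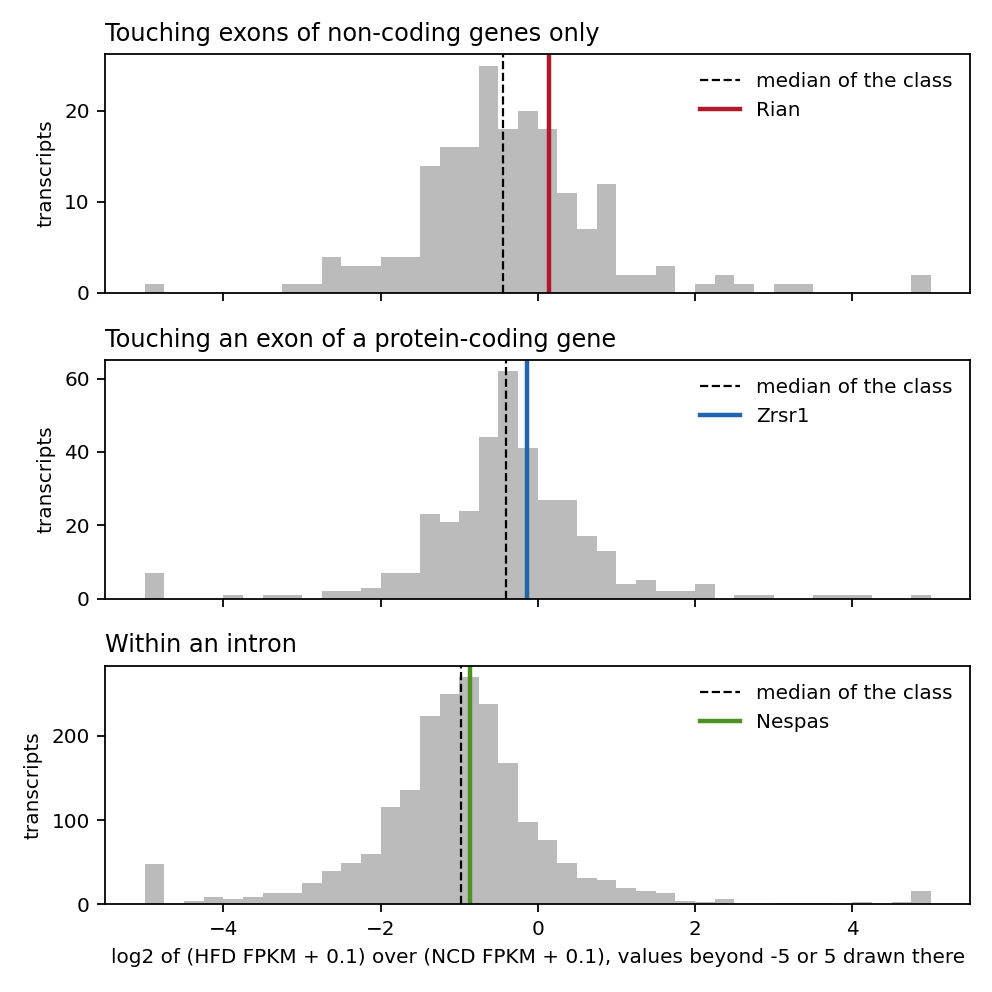
Histograms of the log2 ratio of HFD over NCD for transcripts touching only non-coding exons (193), touching a coding gene's exon (353) and within introns (2054), with the class median dashed and the member of that class as a coloured line. Rian at 0.14 and Zrsr1 at -0.14 lie to the right of medians of -0.44 and -0.41, and Nespas at -0.86 lies next to the intron median of -0.98.

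The number of fragments behind the Zrsr1 and Nespas values was estimated from the steps between low FPKM values. The estimate assumes that a column counts fragments of 1 pool and that the transcripts are unspliced. Zrsr1 then rested on about 633 fragments in NCD and 773 in HFD. Its log2 fold without the added 0.1 was -0.14, with an exact 95% interval of -0.29 to 0.02 on the deposited scaling. Nespas rested on about 442 and 319 fragments, and its log2 fold of -0.90 had an interval of -1.11 to -0.69. These intervals cover counting error alone and not the variation between mice. They also take the fitted totals as known, so they are no test of the diets. The table's median of -0.82 was computed with 0.1 added and is not set against them. No interval was set for Rian, since its spliced length is not in the file.

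The other imprinted genes gave few transcripts to set beside the members. Of a list of 63 imprinted genes, 58 were found in the annotation under those names and 6 held a transcript, with 8 transcripts in all. Of the 8, 1 (Rian) was higher in HFD and 7 were lower, with 1 at least 2-fold lower and 0 at least 2-fold higher. Over all transcripts, 2475 of 3093 (80.0%) were lower and 618 higher, a split close to that of these 8, while 41.9% were at least 2-fold lower and 6.27% at least 2-fold higher. The 8 had a median log2 ratio of -0.45, against -0.82 for the table, and it is 0.37 relative to the table's median. Of the 8, 5 touched annotated exons, whereas 2054 of the 3093 transcripts lay within introns. Medians were -0.41 over coding exons, -0.44 over non-coding exons and -0.98 within introns. The 8 mix these classes, so their pooled median has no single class median to stand beside. The 5 that touched exons had a median of -0.14, above those of both exon classes. Of these 5, a Usp29 transcript at -1.17 lay below both class medians and Blcap at -0.41 lay level with the coding one. The intronic ones, Nespas at -0.86 and Ppp1r9a at -0.49 and -0.57, lay above the intron median. With so few transcripts and no library values, whether the list differs from its classes was not tested.

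The 5 transcripts of the list outside the members ran from -1.17 to -0.14. Usp29, a paternally expressed gene of the Peg3 cluster, held a pair of long overlapping isoforms. One was at 3.57 FPKM in NCD and 3.22 FPKM in HFD (log2 ratio -0.14), the other at 1.01 and 0.394 (-1.17), so the isoforms of a single locus differed more than Rian and Zrsr1 did. No source used here says how the authors divided reads between isoforms. The interval assigned to Blcap, at 4.39 and 3.27 FPKM (log2 ratio -0.41), also held the whole of Nnat, the paternally expressed gene of neuronatin, a small membrane protein made in beta cells. Both transcripts in introns of Ppp1r9a, a gene next to the imprinted Sgce and Peg10, were lower in HFD at -0.49 and -0.57. Relative to the table's median, 4 of these 5 transcripts lie above 0, the exception being the lower Usp29 isoform. The Usp29 and Blcap transcripts touched coding exons, a class with a median of -0.41. Beside that median only the Usp29 isoform at -0.14 was clearly higher, and Blcap lay next to it. Both Ppp1r9a transcripts were above the median of -0.98 within introns.

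**Figure D4:**
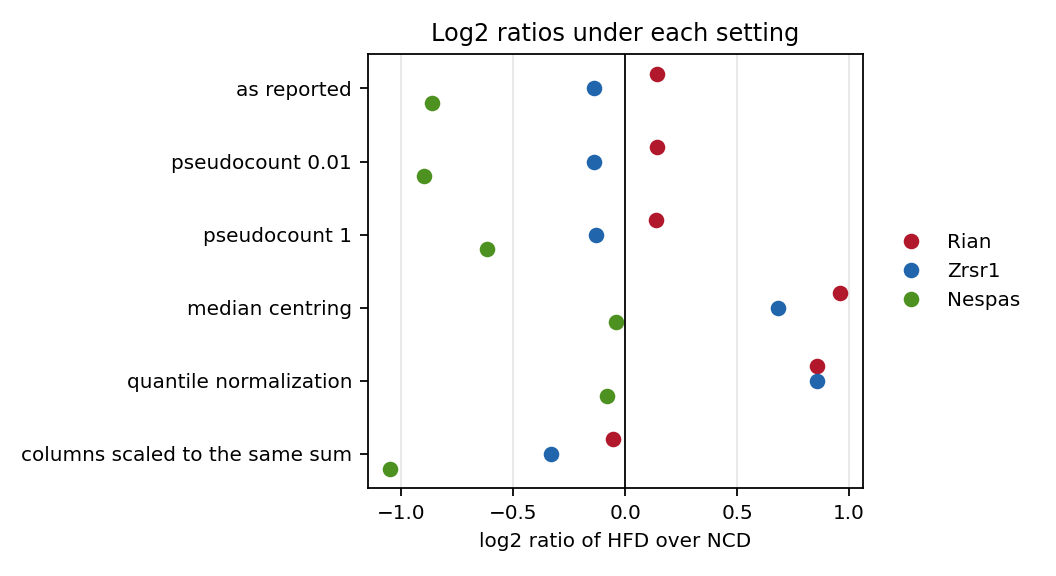
Log2 ratio of HFD over NCD for Rian, Zrsr1 and Nespas (points) as reported and under other pseudocounts and scalings. Rian runs from -0.05 to 0.96, Zrsr1 from -0.33 to 0.86 and Nespas from -1.05 to -0.04, so the sign of Rian and Zrsr1 depends on the scaling while Nespas stays below 0 in the settings drawn.

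By level and ratio together, the transcripts most like each member in named genes were sought among 2284 candidates, by distance on the plane of both log2 values. This likeness rests on 2 group values only. Nespas had near-identical company: a transcript in an intron of Pitpnc1 (2.96 FPKM in NCD and 1.61 FPKM in HFD) lay 0.02 log2 units away, one in Usp50 0.03 and one in Slfn5 0.06. The nearest to Zrsr1 were intronic transcripts in Ctnna2 (14.1 and 10.8 FPKM), Vps45 (11.3 and 9.94 FPKM) and Prkar1b (11.2 and 9.93 FPKM), at 0.18 to 0.26. Their intervals were 309 to 490 bases long, against 1183 for Zrsr1. Rian had no close neighbour, the nearest being in Tmem39a (66.0 and 37.0 FPKM) at 0.69, Arhgap21 at 0.92 and Sfi1 at 1.06. Intervals of these 3 were 343 to 376 bases long, against 41390 for Rian.

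Since the Zrsr1 interval starts at the annotated start of the gene, its promoter sequence is shown beside that of Rian, whose interval starts far from it. Promoters of imprinted genes often carry CpG sites that are methylated on the chromosome of 1 parent. The 250 bases before each start were taken from RefSeq (GRCm38.p6, plus strand, 5′ to 3′), with each CpG in capitals.
Zrsr1, chr11:22971755-22972004: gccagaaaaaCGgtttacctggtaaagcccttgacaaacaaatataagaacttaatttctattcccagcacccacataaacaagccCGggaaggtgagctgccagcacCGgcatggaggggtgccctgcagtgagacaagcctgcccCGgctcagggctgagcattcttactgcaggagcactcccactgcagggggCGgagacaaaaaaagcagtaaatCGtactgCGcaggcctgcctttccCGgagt
Rian, chr12:109603695-109603944: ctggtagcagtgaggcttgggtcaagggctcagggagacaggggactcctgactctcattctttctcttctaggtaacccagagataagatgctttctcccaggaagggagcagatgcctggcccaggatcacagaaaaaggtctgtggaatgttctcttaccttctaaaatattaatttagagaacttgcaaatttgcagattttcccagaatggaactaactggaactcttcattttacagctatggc
The Zrsr1 window held 8 CpG sites, and 43.0% of the 32851 promoter windows of the same length held at least as many. The Rian window held 0, as did 7.87% of windows, and the median window held 6.

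Within the Zrsr1 gene, CpG sites were concentrated in the measured part. The interval held 80 CpG in 1183 bases, or 6.76 per 100 bases, and the remaining 3308 bases of the exon held 50, or 1.51 per 100. In windows of 100 bases, the 11 inside the interval held 1 to 9 CpG (median 7) and the 32 after it held 0 to 8 (median 1). Methylation was not measured in these samples.

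**Figure D5:**
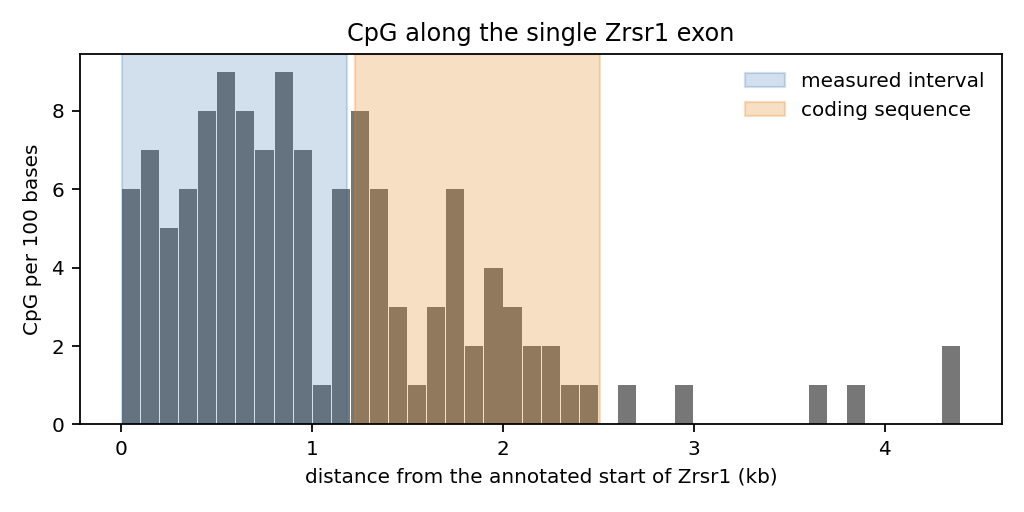
Number of CpG sites in each 100-base window along the single Zrsr1 exon (bars) against distance from the annotated start in kb, with the measured interval shaded blue and the coding sequence shaded orange. Windows inside the interval hold a median of 7 CpG and those after it a median of 1, and the dense part runs on into the start of the coding sequence.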

How the data were processed

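The authors deposited 1 table of long non-coding RNA transcripts with intervals and 2 columns of FPKM, 1 per diet group, per the file headers. Not given in the sources used here: how 3 libraries became 1 column, and which aligner, assembler and quantifier were run. Builds named in the submitters' processing notes are GRCm38 and mm10. Intervals were overlapped with GENCODE M21 (GRCm38), ties going to the smallest gene. Members, lists and rules were chosen with earlier results of these data known. Named were the members, other transcripts of the imprinted list or of the 3 loci, and the 3 nearest transcripts per member.

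The log2 ratio used a pseudocount of 0.1, with no filter. The code was tested on simulated data. Fragment totals were fitted to steps in low values of transcripts of 320 to 800 bases. Totals were 55.3 (NCD) and 74.5 (HFD) in units of 1e6 fragments. Below 8 fragments, 79 of 131 values in NCD (60.3%) and 191 of 236 in HFD (80.9%) lay within 0.15 of a whole fragment. By chance 30% would do so for a total fixed beforehand. Each total and fragment length was chosen to bring these same values near whole fragments. The level by chance is thus higher than 30% and was not estimated. These shares therefore cannot check the totals, and the NCD total is the less certain. No model across libraries could be fitted to 1 value per group. Python 3.11.15, pandas 2.3.3, SciPy 1.17.1 and Biopython 1.88 were used.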

Additional observations from a re-analysis of the deposited data

How the results depend on the processing

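No paired analysis was possible because each diet has a single deposited column, and no library could be left out either. Pseudocounts of 0.01 and 1 moved the log2 ratio of Nespas to -0.90 and -0.62, that of Zrsr1 to -0.14 and -0.13, and the median of the imprinted list to -0.46 and -0.35. Median centring gave 0.96 for Rian, 0.68 for Zrsr1, -0.041 for Nespas and 0.37 for the list, and quantile normalization gave 0.86, 0.86, -0.079 and 0.43. Scaling the columns to the same sum gave -0.054, -0.33, -1.05 and -0.65; that scaling shifts ratios by -0.20, and a single transcript made up 9.39% of the NCD sum and 32.3% of the HFD sum. Assigning transcripts by annotated exons left Rian and Zrsr1 as they were, gave 0 transcripts and so no value for Nespas, and a median of -0.14 over 5 transcripts for the list. The share at least 2-fold lower in HFD was 22.3% with a pseudocount of 1, 15.0% after centring, 14.9% after quantile normalization and 11.8% under a 4-fold rule; the share higher was 3.27%, 15.9%, 16.2% and 2.91%. A pseudocount of 0.01, the same-sum scaling and a minimum of 1 FPKM kept both shares within 1.5 times. The fitted totals entered only the counting intervals. How far the low values, with 49 transcripts at 0 in NCD and 80 in HFD, depend on depth was not tested.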
